A study of Mus musculus with 6 samples.

Results

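Of the 29616 genes listed in the table, 10 were followed here as adipogenic factors and fatty acid carriers. They were the transcription factors Cebpb, Cebpd, Cebpa and Pparg, the fatty acid binding proteins Fabp4 and Fabp5, the uptake genes Cd36 and Lpl, the lipid droplet gene Plin2 and the adipokine gene Adipoq. They were found by symbol through their Ensembl identifiers in the GENCODE M21 annotation, and all 10 had a row. The table held 6 RNA-sequencing libraries from C57BL/6 mice, 3 of control mice and 3 of mice treated with dexamethasone, a synthetic glucocorticoid. Treatment began at 8 weeks of age and lasted 4 weeks, with 0.08 µg/g given daily, and the control animals of the study received saline. The labels call the material bone cells, and the study's text says that cells positive for Osteocalcin, a bone matrix protein of osteoblasts, had been taken from bones freed of marrow. Whether a library was 1 mouse or several pooled mice is not given in the sources used here, so the spread below is that between libraries.

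Adipogenesis is known as a cascade of transcription factors. Glucocorticoid and cAMP signals first act on C/EBPβ and C/EBPδ, which switch on C/EBPα and PPARγ, and the latter pair then keep each other on and drive the genes of the fat cell. In bone, osteoblasts and marrow adipocytes come from common stromal precursors, and glucocorticoids are known to favour marrow fat. The genes downstream serve separate steps: lipoprotein lipase, the product of Lpl, frees fatty acids from circulating triglyceride, CD36 takes them up at the membrane, FABP4 and FABP5 carry them through the cytosol, perilipin 2 coats the droplets in which they are stored, and adiponectin, the product of Adipoq, is the hormone of mature adipocytes.

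Fabp4 and Fabp5 are paralogues that lie near each other. In the RefSeq gene order both are on chromosome 3, with 2 protein-coding genes between them, Pmp2 and Fabp9, which belong to the same family. Their coding sequences are shown because the results below turn on telling the 2 transcripts apart. They were taken from the GENCODE M21 transcripts, run from the start codon to the stop codon, and have capitals where the aligned sequences differ or face a gap.
Fabp4: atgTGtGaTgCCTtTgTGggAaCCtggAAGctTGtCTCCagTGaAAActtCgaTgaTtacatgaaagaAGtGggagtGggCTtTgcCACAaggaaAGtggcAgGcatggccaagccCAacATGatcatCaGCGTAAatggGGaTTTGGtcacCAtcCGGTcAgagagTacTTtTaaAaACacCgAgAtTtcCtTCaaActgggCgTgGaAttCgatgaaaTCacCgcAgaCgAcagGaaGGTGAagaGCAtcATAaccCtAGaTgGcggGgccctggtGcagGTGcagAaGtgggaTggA
Fabp5: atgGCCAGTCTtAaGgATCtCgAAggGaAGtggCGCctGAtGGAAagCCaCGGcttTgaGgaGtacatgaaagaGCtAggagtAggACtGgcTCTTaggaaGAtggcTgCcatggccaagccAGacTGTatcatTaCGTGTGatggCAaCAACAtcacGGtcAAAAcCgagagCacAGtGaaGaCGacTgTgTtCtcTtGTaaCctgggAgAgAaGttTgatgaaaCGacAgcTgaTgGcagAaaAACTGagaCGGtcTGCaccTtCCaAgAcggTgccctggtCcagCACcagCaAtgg
The first 300 bases of each are printed, of 399 and 408 bases in all. Over 399 aligned bases, 243 were identical (60.9%) and 156 differed, and the longest identical run was 12 bases. Of the 75-base positions along the principal Fabp4 transcript, 100% occurred in no other annotated gene, and the share was 88.0% for Fabp5.

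The promoters of Cebpb, Cebpa and Plin2, which were higher with dexamethasone, and of Pparg as a gene downstream of the C/EBPs, are shown next. Of the 10 genes, 6 matched the RefSeq promoter table (build GRCm38.p6), Pparg with 3 start sites. Fabp4, Fabp5, Cebpd and Lpl were not among them. Each sequence is the 250 bases before the start on the strand of the gene, and capitals mark the motifs found. The study's notes name GRCm39 as the build of the reads, so these positions are those of the reference table and not of the deposited counts.
Cebpb, chr2:167688665-167688914, plus strand: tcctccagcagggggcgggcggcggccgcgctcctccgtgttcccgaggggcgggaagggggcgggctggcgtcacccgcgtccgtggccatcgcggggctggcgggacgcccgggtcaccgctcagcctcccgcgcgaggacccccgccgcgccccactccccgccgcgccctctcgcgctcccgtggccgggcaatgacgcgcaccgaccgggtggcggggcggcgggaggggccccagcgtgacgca
Cebpa, chr7:35119043-35119292, plus strand: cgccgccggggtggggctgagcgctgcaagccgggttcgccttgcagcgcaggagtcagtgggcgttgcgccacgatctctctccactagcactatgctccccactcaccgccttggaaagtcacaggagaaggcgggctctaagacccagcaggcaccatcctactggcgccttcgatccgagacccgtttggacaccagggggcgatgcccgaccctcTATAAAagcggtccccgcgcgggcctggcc
Plin2, chr4:86670060-86670309, minus strand: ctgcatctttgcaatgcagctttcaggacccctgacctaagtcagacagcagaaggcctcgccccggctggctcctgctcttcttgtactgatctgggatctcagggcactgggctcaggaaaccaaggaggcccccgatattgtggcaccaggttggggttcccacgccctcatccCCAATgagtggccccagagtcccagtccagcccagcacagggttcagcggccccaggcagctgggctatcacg
Pparg, the start site farthest downstream, chr6:115421816-115422065, plus strand: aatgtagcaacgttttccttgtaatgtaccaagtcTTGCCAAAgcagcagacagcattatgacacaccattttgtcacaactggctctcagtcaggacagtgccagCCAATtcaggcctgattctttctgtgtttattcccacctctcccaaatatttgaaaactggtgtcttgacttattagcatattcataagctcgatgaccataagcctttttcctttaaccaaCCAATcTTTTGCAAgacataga
The search covered 5 sets of letters on both strands. They were ACANNNTGT (a glucocorticoid receptor core), TTGCNNAA (a C/EBP core), CCAAT (the box bound by NF-Y), TATAAA (a core promoter box) and the DR1 repeat of PPAR and RXR, and none of the matches overlapped another. Of 32851 promoters of the same length, 5.84% held the first, 9.56% the second, 33.8% the third, 12.4% the fourth and 0.0335% the fifth. The Cebpb window held none of them. Cebpa had TATAAA with its first base 30 bases before the start, and Plin2 had CCAAT at 73. The Pparg window shown had TTGCNNAA at 215 and 16 and CCAAT at 144 and 22. The other Pparg windows held no C/EBP core, and 1 of them had CCAAT at 83 and TATAAA at 29. The Cd36 window had CCAAT at 195 and that of Adipoq had it at 34, 27 and 7. These matches describe the letters of the windows only.

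Values are normalized counts, that is, reads per gene divided by the library's size factor, unless another scale is named. Recovered reads numbered 72596611 to 89910728 per library. Dexamethasone replicate 3 differed most from its group: its chi-square divided by the degrees of freedom was 26.1 and 18.1 against the other dexamethasone libraries, which differed by 6.74. Without it, the same numbers of the 10 genes were called, 2 higher and 1 lower. The limma fit, on log2(normalized count + 1), took the 17442 genes whose mean reached 10, and 7 of the 10 were among them. Cd36, Lpl and Adipoq had too few reads. A gene was called when its adjusted p was under 0.05 and its log2 fold change at least 1 in either direction. By that rule Fabp4 and Cebpb were higher and Fabp5 was lower, 3 of the 7, where 22.3% of all tested genes were called, 11.7% higher and 10.6% lower. With the adjusted p alone, 6 of the 7 passed, 5 of them higher and 1 lower, against 72.5% of all tested genes, 37.2% higher and 35.2% lower. The groups did not overlap for 6 of the 7, as for 74.7% of all tested genes. The median log2 fold change of the 7 was 0.60, and that of all tested genes was 0.00071. The genes were selected on their role and with the normalized counts of this comparison known, and Fabp4 was chosen by its rise from control to dexamethasone, so their values are given as a description without p-values, and nothing is read from these counts. In bulk libraries fewer cells of a type and less RNA per cell cannot be told apart.

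**Figure D1:**
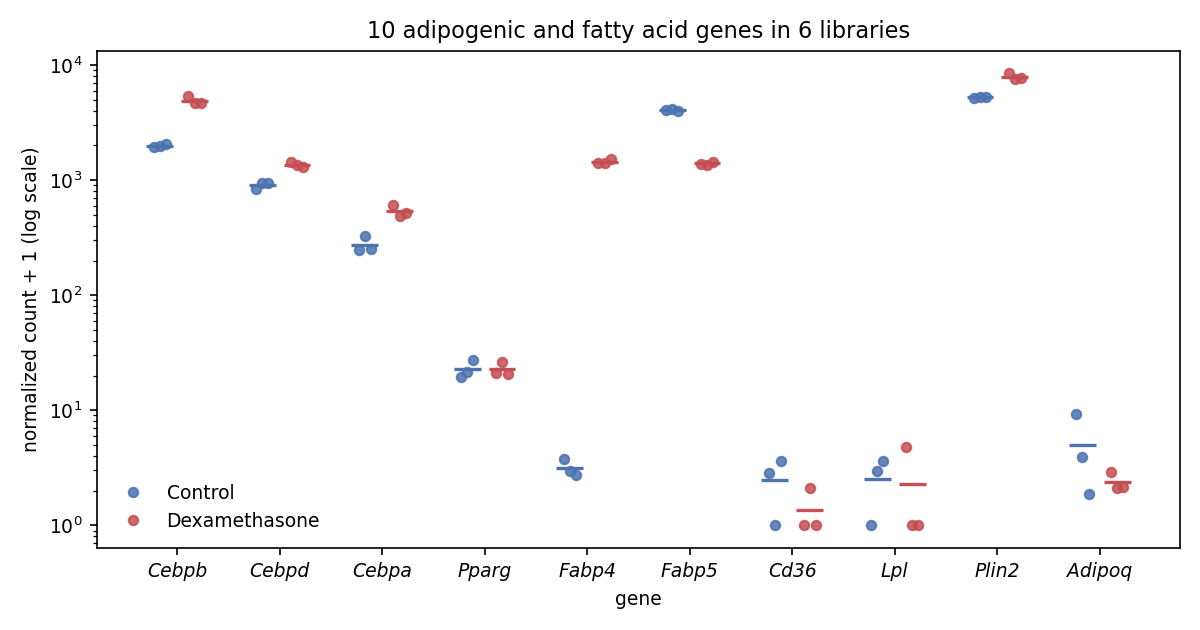
Normalized count + 1 (log scale) of the 10 genes in each library, with control in blue, dexamethasone in red and a line at each group mean (n = 3 per group). The groups stand apart for Cebpb, Cebpd, Cebpa, Fabp4, Fabp5 and Plin2, whereas those of Pparg, Cd36, Lpl and Adipoq overlap.

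Among the early factors, Cebpb, which encodes C/EBPβ, stood at 1944, 1966 and 2059 normalized counts in control replicates 1 to 3 and at 5420.0, 4654 and 4671 in dexamethasone replicates 1 to 3. All 3 dexamethasone libraries lay above all control libraries, and replicate 1 was the highest. The mean went from 1989 ± 61.2 (SD, n = 3) to 4915 ± 437 (SD, n = 3), a log2 fold change of 1.30 (SE 0.0496, 95% interval 1.20 to 1.40). Cebpd, which encodes C/EBPδ, had 841, 942 and 946 normalized counts in the control libraries and 1431, 1359 and 1303 in the dexamethasone libraries. These groups were also separate, by a smaller distance. The means were 910 ± 59.7 (SD, n = 3) and 1365 ± 63.8 (SD, n = 3), a log2 fold change of 0.59 (SE 0.0579, 95% interval 0.47 to 0.70), short of the cut-off of 1.

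Cebpa encodes C/EBPα, the later factor of the same family. It had 244, 327 and 251 normalized counts in the control libraries and 610.5, 483 and 521 in the dexamethasone libraries. The groups did not overlap, and control replicate 2 was the control library nearest to the dexamethasone libraries. The means of 274 ± 45.8 (SD, n = 3) and 538 ± 65.5 (SD, n = 3) gave a log2 fold change of 0.98 (SE 0.103, 95% interval 0.76 to 1.19). This value lay at the cut-off: it was 1.11 without control replicate 2 and 1.05 without dexamethasone replicate 2, and Cebpa was called in both cases.

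Pparg encodes PPARγ, the nuclear receptor without which adipocytes do not form. It was at a low level in all libraries, with read numbers of 20, 21 and 30 in control and 21, 23 and 17 under dexamethasone. In normalized counts these were 18.4, 20.5 and 26.4 against 20.03, 25.1 and 19.8, and the groups overlapped. The means were 21.8 ± 4.14 (SD, n = 3) and 21.6 ± 2.99 (SD, n = 3), and the ratio of the summed reads, dexamethasone over control, was 0.988 with a 95% exact interval of 0.690 to 1.41 for counting error only. The limma log2 fold change was -0.0012 (SE 0.294, 95% interval -0.61 to 0.61). A change of up to this size in either direction was not detectable at this depth.

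Per kb of the principal transcript, the levels of the factors kept 1 order in both groups. Cebpb had 1323 normalized counts per kb in control and 3268 with dexamethasone, Cebpd 243 and 364, Cebpa 104 and 205, and Pparg 12.3 and 12.2. Per kb of coding length the order was the same. Within each library, Cebpb reads were 2.19 ± 0.113 times those of Cebpd in control and 3.599 ± 0.182 times with dexamethasone (SD, n = 3 each). The corresponding ratio of Cebpb to Cebpa was 7.39 ± 1.20 and 9.16 ± 0.416. Both ratios are free of the size factors and did not overlap between the groups. The first ranged from 2.09 to 2.31 in control and from 3.42 to 3.79 with dexamethasone. The second ranged from 6.01 to 8.19 in control and from 8.88 to 9.64 with dexamethasone.

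Genes on the opposite strand cover parts of these factors, and the strand setting of the count is not given in the sources used here. Tmem189 overlaps 20.7% of the exon bases of Cebpb and was 2632 ± 161 (SD, n = 3) in control and 2188 ± 112 (SD, n = 3) with dexamethasone. Spidr, a DNA repair gene, overlaps 15.0% of those of Cebpd and moved the same way as Cebpd, from 2477 ± 62.5 (SD, n = 3) to 5573 ± 142 (SD, n = 3), which gave a log2 fold change of 1.17 (adjusted p = 6.75e-19 by limma). For Cebpa the share was 1.93%, from Gm45091, and it was 0 for the other genes of the set. The part of these overlaps in the counts was not tested.

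**Figure D2:**
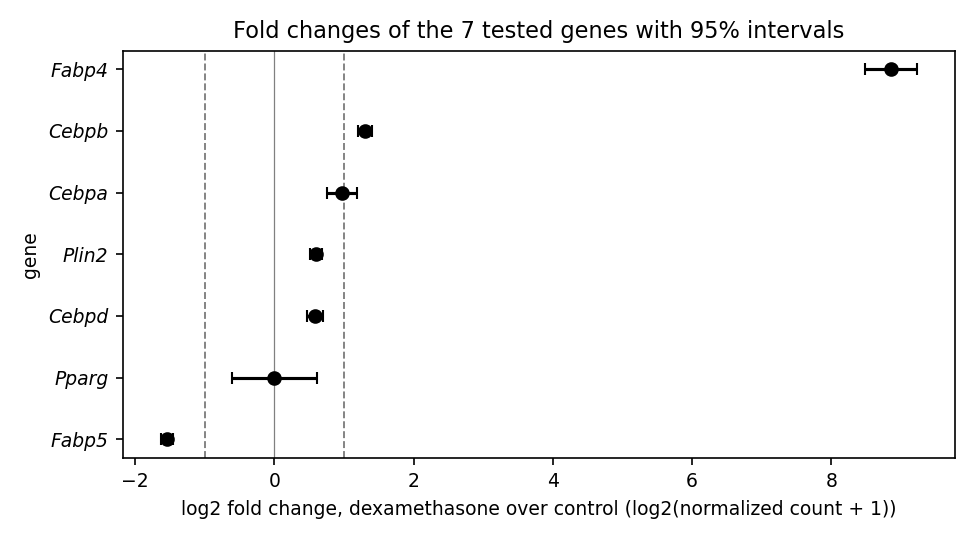
Log2 fold change of the 7 tested genes, dexamethasone over control on the log2(normalized count + 1) scale, as points with 95% intervals from limma (n = 3 per group) and dashed lines at the cut-off of 1 in each direction. Fabp4 stands far to the right at 8.85, Cebpb lies beyond the line at 1.30, Cebpa straddles it at 0.98, and Fabp5 is the gene to the left at -1.54.

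The carriers moved in opposite directions. FABP4 is the carrier of adipocytes and is also known from macrophages and the endothelium of small vessels. Only 3, 2 and 2 Fabp4 reads were found in the control libraries, no more than the 3 that a count of 0 allows. The dexamethasone libraries held 1481, 1293 and 1308. In normalized counts these were 2.75, 1.96 and 1.76 against 1413, 1409 and 1521. The control libraries were thus near the limit of detection, while the dexamethasone libraries lay close together. The means were 2.16 ± 0.527 (SD, n = 3) and 1448 ± 63.4 (SD, n = 3). The ratio of the summed reads was 671, with a 95% exact interval of 325 to 1669 for counting error only. The fitted log2 fold change of 8.85 (SE 0.181) depends on the number added before the logarithm and was 7.67 when 5 was added in place of 1.

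FABP5 is the carrier of epidermis, macrophages and many other cells. Fabp5 had 4043, 4167 and 4018 normalized counts in the control libraries and 1380.3, 1365 and 1445 in the dexamethasone libraries. The control libraries were all far above the dexamethasone libraries. The mean went from 4076 ± 80.1 (SD, n = 3) to 1397 ± 42.8 (SD, n = 3), which was 2.92-fold lower, with a log2 fold change of -1.54 (SE 0.0422, 95% interval -1.63 to -1.46).

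Because both are short transcripts of similar length, 896 and 987 bases, they could be set side by side per kb. Fabp4 went from 2.41 ± 0.589 to 1616 ± 70.8 normalized counts per kb and Fabp5 from 4130 ± 81.2 to 1415 ± 43.3 (SD, n = 3 each). Fabp4 made up 0.0750%, 0.0517% and 0.0482% of their sum in the control libraries and 53.0%, 53.2% and 53.7% in the dexamethasone libraries. Within each dexamethasone library Fabp4 was therefore above Fabp5 on this scale, by a small margin that was alike in all 3. The share of 75-base positions found in no other gene was 100% for Fabp4 and 88.0% for Fabp5. The part of this difference in the margin was not tested. The sum itself was lower with dexamethasone, 3031 ± 114 against 4132 ± 81.1 normalized counts per kb (SD, n = 3 each), and did not overlap between the groups. Among 16954 tested genes with a transcript length, 1.71% were below Fabp4 in control and 77.2% with dexamethasone. For Fabp5 the shares were 93.3% and 74.3%. Pmp2, Fabp9 and Fabp12, the other genes of the cluster, had no row when looked up by symbol, so no level is given for them.

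**Figure D3:**
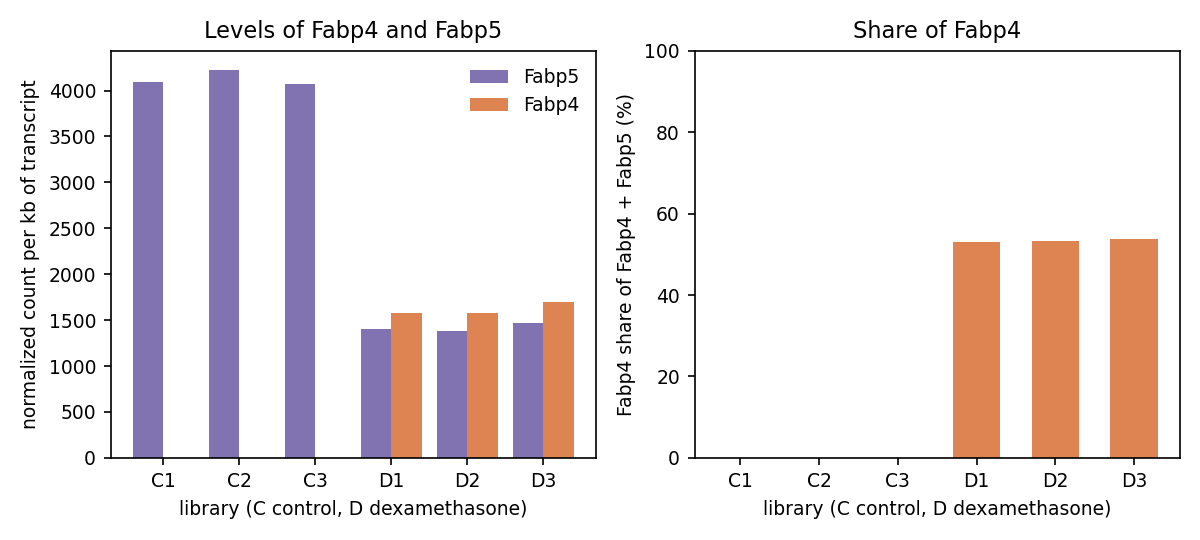
Left, normalized counts per kb of transcript of Fabp5 (purple) and Fabp4 (orange) in control libraries C1 to C3 and dexamethasone libraries D1 to D3, and right, the share of Fabp4 in their sum in percent. Fabp4 cannot be seen in the control bars, and it makes up 53.0% to 53.7% of the sum in the dexamethasone libraries.

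The uptake genes were at the limit of detection. Cd36, the fatty acid translocase, was read 2, 0 and 3 times in control and 0, 1 and 0 times under dexamethasone, which is within 3 reads everywhere. Lpl was read 0, 2 and 3 times in control and 4, 0 and 0 times with dexamethasone. Apart from the 4 Lpl reads of dexamethasone replicate 1, no library exceeded 3 reads of either gene, and no difference was detectable at this depth. The ratio of the summed Lpl reads was 0.920 with a 95% exact interval of 0.183 to 4.27 for counting error only. Per kb of transcript, Cd36 stood at 0.439 and 0.107 normalized counts and Lpl at 0.372 and 0.309, in control and dexamethasone respectively.

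Plin2 encodes the perilipin that is found on lipid droplets in most cell types. It had 5202, 5249 and 5245 normalized counts in the control libraries and 8469.7, 7519 and 7757 in the dexamethasone libraries. All dexamethasone libraries were above the control libraries, replicate 1 the most. The means were 5232 ± 26.2 (SD, n = 3) and 7915 ± 495 (SD, n = 3), a log2 fold change of 0.60 (SE 0.0403, 95% interval 0.51 to 0.68), short of the cut-off. Its reads were 2.63 ± 0.0726 times those of Cebpb in control and 1.61 ± 0.0491 times with dexamethasone (SD, n = 3 each). Per kb, Plin2 went from 2771 to 4192 normalized counts, and 92.5% of the tested genes were below it with dexamethasone.

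Adipoq was read 9, 3 and 1 times in control and 2, 1 and 1 times under dexamethasone. The summed reads were 13 in control and 4 with dexamethasone. Their ratio, dexamethasone over control, was 0.354 with a 95% exact interval of 0.0840 to 1.15 for counting error only. The groups overlapped, and control replicate 1 held most of the reads.

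Set in order per kb, the control levels ran from Fabp5 through Plin2, Cebpb, Cebpd, Cebpa and Pparg to Adipoq, Fabp4, Cd36 and Lpl. With dexamethasone they ran from Plin2 through Cebpb, Fabp4, Fabp5, Cebpd, Cebpa and Pparg to Adipoq, Lpl and Cd36. Adipoq and Fabp4 in control, Adipoq and Lpl with dexamethasone, and Cd36 and Lpl in both groups had library values that overlapped. The remaining neighbours in each order did not overlap.

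The 5 genes whose values lay nearest to those of Fabp4, by the Euclidean distance of log2(normalized count + 1) over the 6 libraries, were Acsbg1, Dusp2, Tarm1, Serpina3m and Hif3a. Acsbg1 encodes an acyl-CoA synthetase that activates long fatty acids. It went from 3.08 ± 0.533 to 965 ± 29.3 normalized counts (SD, n = 3 each), at a distance of 1.20. Dusp2, a phosphatase of MAP kinases, went from 1.83 ± 0.890 to 881 ± 23.8, at a distance of 1.38. The other 3 lay at distances of 2.63 to 2.87, among them Hif3a, a hypoxia-inducible factor subunit, with means of 1.21 in control and 566 with dexamethasone. Of the 17442 tested genes, 14 had at most 3 reads in each control library and a dexamethasone mean of 100 normalized counts or more, and 0 of these exceeded Fabp4. The reverse pattern was found for 2 genes. Fabp4 was chosen by its rise between these same libraries, so its place among the 14 is a description and nothing is read from it.

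Around these 10 genes, 7 lists of other genes of adipogenesis and fatty acid handling held 191 genes, of which 170 had a row and 130 were tested. Of these, 16 were called higher (12.3%) and 18 lower (13.8%), with a median log2 fold change of -0.04. These shares were near those of all tested genes, 11.7% and 10.6%. Rescaling all libraries to the same total moved the median of all genes to -0.11, and the calls in the lists were then 13 higher and 19 lower. The p-values below are limma adjusted p over all tested genes. The lists were chosen with earlier results of these data known, and the genes named include the largest called changes of each list. Their p-values are therefore given as a description.

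Of 24 tested adipogenic regulators, 3 rose, 3 fell and 18 were not called (median log2 fold change 0.12). Egr2, an immediate early factor upstream of the C/EBPs, rose from 762 ± 56.4 to 2871 ± 131 normalized counts (SD, n = 3 each; log2 fold change 1.91, limma adjusted p = 3.71e-20). Klf5, a partner of C/EBPβ and C/EBPδ at the Pparg promoter, rose from 15.8 ± 4.14 to 45.9 ± 4.28, and Prdm16, a factor of brown fat identity, rose from 67.1 ± 16.5 to 170.2 ± 38.5. Zfp423, which marks committed preadipocytes, fell from 2234 ± 50.1 to 921 ± 74.5 (SD, n = 3 each; log2 fold change -1.28, limma adjusted p = 1.23e-16). Nr1h3, the oxysterol receptor LXRα, and Zfp467 also fell, with log2 fold changes of -1.44 and -1.95. Both were low, at 44.8 ± 4.10 and 27.3 ± 3.20 normalized counts in control and 16.5 ± 5.83 and 8.90 ± 7.15 with dexamethasone (SD, n = 3 each). The glucocorticoid receptor gene Nr3c1 had 20137 ± 628 normalized counts in control and 10607 ± 219 with dexamethasone (SD, n = 3 each), a log2 fold change of -0.92 that missed the cut-off, though it passed at the same total and after quantile normalization. Bmpr1a, a BMP receptor, had a log2 fold change of -0.30.

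Of 18 tested anti-adipogenic regulators, 2 rose, 5 fell and 11 were not called (median -0.12). Wnt10b, a Wnt ligand that favours bone over fat in common precursors, fell from 3032 ± 58.8 to 844 ± 50.5 normalized counts (SD, n = 3 each; log2 fold change -1.85, limma adjusted p = 1.03e-20). Zfp521, an antagonist of Zfp423 and Ebf1, fell from 3501 ± 44.7 to 1326 ± 6.69 (log2 fold change -1.40), and Ddit3, a C/EBP relative that forms inactive dimers, fell from 3697 ± 123 to 1443 ± 30.2 (log2 fold change -1.36). The Notch target Hes1 and the zinc finger factor Gata2 rose, with log2 fold changes of 1.51 and 1.17. The list thus held genes called in both directions. Its most abundant members, Ctnnb1 and Ncor1, had log2 fold changes of -0.11 and -0.13.

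Of 18 other tested genes of fatty acid binding and uptake, 4 rose, 3 fell and 11 were not called (median 0.50). Slc27a1, the fatty acid transport protein FATP1, rose from 466 ± 14.4 to 2048 ± 56.6 normalized counts (SD, n = 3 each; log2 fold change 2.13, limma adjusted p = 3.29e-21). Acsl4, which couples arachidonic acid to CoA, rose from 5315 ± 105 to 14738 ± 271 (log2 fold change 1.47). Scarb1, the HDL receptor SR-BI and a relative of CD36, rose with a log2 fold change of 1.07 that was under the cut-off at the same total and after quantile normalization. In the same family as the carriers, Crabp2, which binds retinoic acid, fell from 1137 ± 56.8 to 184.6 ± 12.8 (log2 fold change -2.62, limma adjusted p = 5.36e-20), and Fabp3, the heart form, fell from 34.3 ± 4.85 to 11.7 ± 6.34 (log2 fold change -1.60). Cavin2 fell with a log2 fold change of -1.13, whereas the abundant caveolar genes Cavin1 and Cav1 had log2 fold changes of 0.47 and 0.52.

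Of 14 tested genes around lipoprotein lipase, 3 rose, 3 fell and 8 were not called (median 0.35). Lrp8, a receptor for apolipoprotein E, rose from 1142 ± 24.7 to 6083 ± 269 normalized counts (SD, n = 3 each; log2 fold change 2.41, limma adjusted p = 1.8e-24). Lipg, endothelial lipase, rose from 4.08 ± 2.40 to 18.8 ± 4.95, and Sdc1, a heparan sulphate proteoglycan, rose with a log2 fold change of 1.07 that was under the cut-off at the same total and after quantile normalization. Sort1 and Sorl1, sorting receptors that take lipoprotein lipase to lysosomes, fell with log2 fold changes of -2.41 and -1.72, and Lipc, hepatic lipase, fell with -1.35. Sort1 went from 768 ± 7.07 to 143 ± 3.26 normalized counts. Sorl1 and Lipc were low, going from 38.7 ± 4.06 to 11.5 ± 4.45 and from 33.9 ± 6.16 to 13.1 ± 5.17 (SD, n = 3 each). Lrp1, the most abundant member, had a log2 fold change of 0.45.

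Of 22 tested genes of lipid droplets and triglyceride turnover, 1 rose, 1 fell and 20 were not called (median -0.07). Lpin3, a phosphatidate phosphatase, rose from 781 ± 53.3 to 4835 ± 166 normalized counts, and Gpam, the mitochondrial enzyme of the first step of glycerolipid synthesis, fell from 9610 ± 284 to 3728 ± 267 (SD, n = 3 each). Their log2 fold changes were 2.63 (limma adjusted p = 6.6e-24) and -1.37 (limma adjusted p = 3.09e-19). The abundant acyltransferases Gpat4 and Agpat1 had values of 0.29 and -0.07. Of 20 tested PPAR target genes of fatty acid use, 1 rose, 2 fell and 17 were not called (median -0.34). The acyl-CoA thioesterases moved apart: Acot1 rose from 156 ± 6.84 to 492 ± 36.6 (log2 fold change 1.65) and Acot2 fell from 4999 ± 54.7 to 1577 ± 17.3 (log2 fold change -1.66). Vnn1, a pantetheinase at a low level, fell from 31.1 ± 4.90 to 8.82 ± 1.04, a log2 fold change of -1.70. Hadha and Cpt1a of mitochondrial fatty acid oxidation had log2 fold changes of -0.19 and -0.27. Acot1 and Acot2 are close copies, so the split of their reads is uncertain.

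Of 14 tested genes of adipokines and adipocyte metabolism, 2 rose, 1 fell and 11 were not called (median 0.10). Fasn, fatty acid synthase, rose from 23306 ± 1407 to 58275 ± 3993 normalized counts (SD, n = 3 each; log2 fold change 1.32, limma adjusted p = 2.93e-18). Elovl6, which lengthens the product of Fasn, rose with a log2 fold change of 1.13, which was 0.97 after quantile normalization. Car3, a carbonic anhydrase abundant in fat, fell from 88.7 ± 8.25 to 13.9 ± 3.84 (log2 fold change -2.62, limma adjusted p = 9.67e-10). The desaturase gene Scd2 had a log2 fold change of -0.12.

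**Figure D4:**
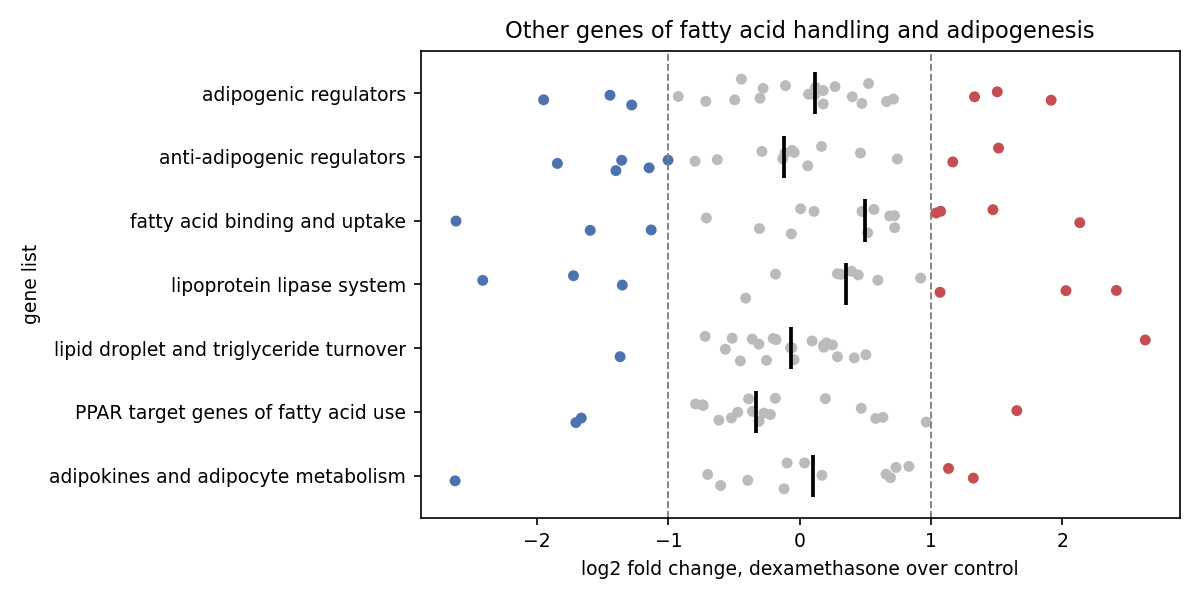
Log2 fold change, dexamethasone over control, of the tested genes of 7 lists, 1 point a gene, red where called higher, blue where called lower and grey otherwise, with a black bar at each list's median and dashed lines at the cut-off. Each list holds genes called in both directions, and the medians lie between -0.34 and 0.50.

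The defining markers of adipocytes were near 0 in both groups. Of 15 further adipocyte markers, 13 had a row and 4 were tested, of which 0 rose and 1, Car3, fell. The sum of the list was 605 to 618 normalized counts in the control libraries and 377 to 423 in the dexamethasone libraries, most of it from Plin4 and Lipe, which had log2 fold changes of -0.72 and -0.25. Plin1, the perilipin of mature fat cells, had 8 reads over the control libraries and 3 over the dexamethasone libraries, Cidec had 4 and 1, Slc2a4 had 4 and 1, and Lep had 0 and 3. Cfd, adipsin, which is named here after its values were seen, was at 0.918, 3.91 and 2.64 normalized counts in control and 18.1, 15.3 and 17.4 with dexamethasone. All Cfd values with dexamethasone lay above those of control, but its mean was under 10 and it was not tested. Lep had 1 read in each dexamethasone library, which is within the 3 reads that a count of 0 allows. The brown adipocyte markers summed to 13.7 to 34.0 in control and 12.4 to 25.6 with dexamethasone, with Otop1 as the tested gene and 0 called (log2 fold change -0.78, limma adjusted p = 0.113). Elovl3 had 10 reads over the control libraries and 19 over the dexamethasone libraries.

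**Figure D5:**
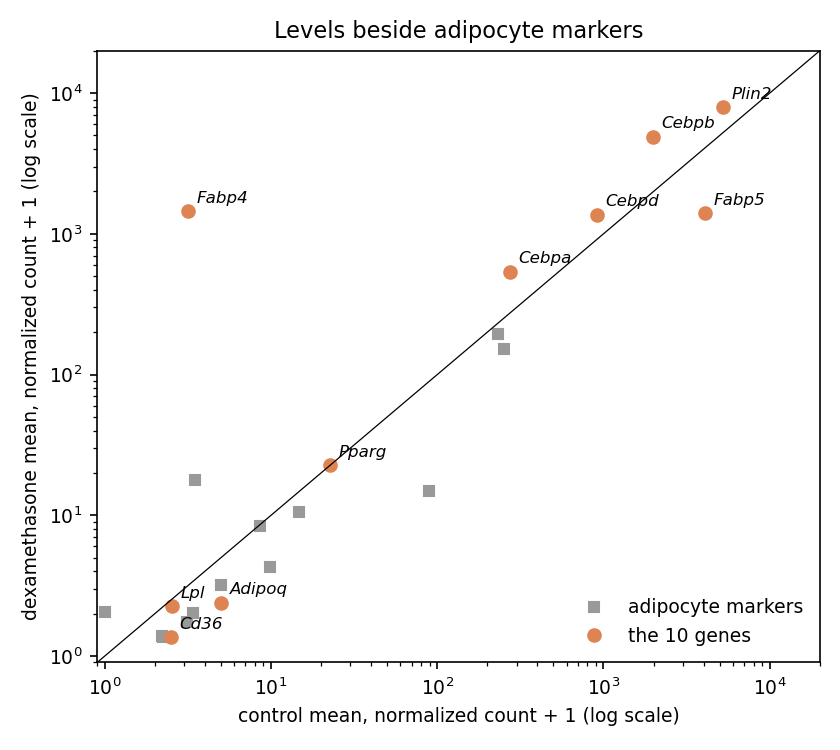
Mean normalized count + 1 with dexamethasone (vertical, log scale) against control (horizontal, log scale) for the 10 genes in orange and 13 adipocyte markers as grey squares, with a line of equal levels (n = 3 per group). Fabp4 stands alone at the upper left, at 2.16 in control and 1448 with dexamethasone, and most adipocyte markers lie at the lower left beside Lpl, Cd36 and Adipoq.

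FABP4 and FABP5 are also known from other cell types that a bone preparation can hold. The macrophage list had 7 of 15 genes tested, with 4 higher and 1 lower, and summed to 3845 to 3954 normalized counts in control and 6040 to 6836 with dexamethasone. Cd68, Mrc1 and Cd163 rose, with log2 fold changes of 1.78, 2.24 and 1.33, Lyz2 fell with -1.502, and Mertk, the most abundant, had 0.98. These rises were not equally firm. Under the alternative settings described below, Cd68 could be fitted in 17, with log2 fold changes of 1.66 to 1.87. Mrc1 could be fitted in only 13, with 1.45 to 2.57, and Cd163 in 16, with 0.98 to 1.46. The median log2 fold change of the 7 tested genes was 1.21. Among the genes of the list with few reads, Itgam had 9 over the control libraries and 7 over the dexamethasone libraries, and Fcgr1 had 4 and 1. The endothelial list had 9 of 19 genes tested, with 2 higher and 1 lower, and its sum went from 7414 to 7998 in control to 49916 to 53190 with dexamethasone. This was almost all Aqp1, a water channel that rose from 6631 ± 221 to 50815 ± 1629.8 (SD, n = 3 each; log2 fold change 2.94). Esam rose and Ptprb fell, with log2 fold changes of 1.20 and -1.25, Kdr had 0.25, and VE-cadherin (Cdh5) had 2 reads over the control libraries and 5 over the dexamethasone libraries. The part of these cells in the rise of Fabp4 was not tested.

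Of 11 marrow stromal markers 8 were tested, with 3 higher and 3 lower, and their sum was 37543 to 40362 in control and 38575 to 39583 with dexamethasone. Hp, which is also expressed by adipocytes, rose from 12.3 ± 1.504 to 1098 ± 59.2 normalized counts (SD, n = 3 each; log2 fold change 6.38), Kitl rose with a log2 fold change of 2.89 and Lepr, the leptin receptor, with 1.72. Il7, Gas6 and Vcam1 fell, with log2 fold changes of -1.91, -1.09 and -1.001. Blood cell genes were low, with sums of 94.0 to 106 in control and 67.7 to 98.1 with dexamethasone, and 0 higher and 2 lower (Coro1a and Laptm5) of 5 tested. Alas2 and Lcp1 of that list had log2 fold changes of -0.09 and 0.03. Muscle genes summed to 179 to 211 and 168 to 229, with 1 of 4 tested, Acta1, lower. Actn3 and Mylpf had log2 fold changes of 0.31 and 0.33.

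All 12 osteoblast genes with a row were tested, and 2 were higher and 8 lower. Osteocalcin (Bglap), whose protein was used to sort the cells, was at 107 ± 12.9 normalized counts in control and 12.2 ± 2.80 with dexamethasone (SD, n = 3 each). Even the control level was low for libraries of 72596611 to 89910728 reads, and the reason was not tested. Bglap2 is a near-identical copy of Bglap, and its count is uncertain for that reason. It fell from 324 ± 21.0 to 31.3 ± 2.17, a log2 fold change of -3.33. Alpl, alkaline phosphatase, fell from 321 ± 28.5 to 57.7 ± 0.856, a log2 fold change of -2.45, and the abundant collagen gene Col1a2 had a log2 fold change of -1.05. Beyond these markers the identity of the sorted cells was not tested. Dmp1, a matrix gene of osteocytes, rose from 38.5 ± 2.66 to 5639 ± 326 and Spp1, osteopontin, from 33595 ± 988 to 1279674 ± 29571. Of 12 known glucocorticoid targets, 9 were called higher and 0 lower, where 11.7% of all tested genes were called higher and 10.6% lower. With the adjusted p alone, 11 were higher and 1 was lower. This list, like the others, was chosen with earlier results of these data known, so it is a description and no check of the treatment. Fkbp5 was at 1855 ± 37.3 normalized counts in control and 39489 ± 2584 with dexamethasone, and Sgk1 at 3596 ± 215 and 68542 ± 590.4 (SD, n = 3 each). Zbtb16 was at 0 reads in all control libraries and at a mean of 42.8 normalized counts with dexamethasone, and Cdkn1a had a log2 fold change of -0.73.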

How the data were processed

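RNA from 6 libraries (3 control, 3 dexamethasone) was sequenced after stranded mRNA library preparation. Per the labels, the authors aligned reads to GRCm39 with STAR 2.7.10a and normalized counts with DESeq2 1.36.0. The annotation release and the strand setting are not given in the sources used here. The deposited signal is the read count per gene divided by a size factor per library. All values (100%) were whole multiples of the value of 1 read within 0.001, so reads were recovered by the value of 1 read per library. Replicate pairs differed by more than counting noise (chi-square per degree of freedom 3.27 to 26.1, the highest values, 18.1 and 26.1, being those of dexamethasone replicate 3).

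Log2(normalized count + 1) of genes with a mean of at least 10 was compared with limma 3.58.1 (R 4.3.3, trend on, Benjamini-Hochberg adjustment over 17442 genes), without a block. Cut-offs followed the study's methods. On counts simulated for this comparison over 17442 genes, limma recovered 200 of 200 changed genes with 0 false calls. The data held 3894 called genes, and recovery with that many changed genes was not tested. An exact permutation test of 3 against 3 libraries cannot go below p = 0.1. Identifiers were matched to symbols through GENCODE M21 (28087 of 29616). Levels per kb used the principal transcript. Intervals on reads are exact binomial intervals, and 3 reads was taken as the limit of a count of 0.

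The members and lists were chosen with earlier results of these data known. The text names the 10 members, the 3 called genes of largest change in each direction and the 2 of highest mean per list, the 5 genes nearest to Fabp4, the neighbouring family members and cell type markers at the extremes of level. Alternatives were other pseudocounts (0.5 and 5), filters (none and a mean of 50), scalings (same total, TMM, quantile), limma without trend, edgeR 4.0.16 and DESeq2 1.42.0 on recovered reads, a replicate block, leaving out each library and the adjusted p alone.

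A gene that the naming rule covers is not reported here.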

Additional observations from a re-analysis of the deposited data

How the results depend on the processing

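The direction of Cebpb, Cebpd, Cebpa, Fabp4, Fabp5 and Plin2 held in the 17 alternatives, and Cebpb, Fabp4 and Fabp5 were called in each. Their log2 fold changes ranged from 1.14 to 1.34 for Cebpb, 0.47 to 0.62 for Cebpd, 0.86 to 1.11 for Cebpa, 7.67 to 9.38 for Fabp4, -1.68 to -1.53 for Fabp5 and 0.39 to 0.63 for Plin2. That of Pparg was between -0.11 and 0.14 in 16 alternatives and could not be fitted at a mean of 50. Pparg, Cd36, Lpl and Adipoq are limited by their reads.

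With the adjusted p alone, 12645 genes passed (6497 higher, 6148 lower), with 6 members (5 higher) and 111 list genes (57 higher, 54 lower), because the requirement on the fold change is dropped. With a filter at a mean of 50 there were 2536 calls, 1052 of them lower, among 13267 genes tested. Leaving out 1 library gave 3888 to 3922 calls (1953 to 2099 higher, 1795 to 1942 lower), 3 to 4 members (2 to 3 higher, 1 lower) and 33 to 35 list genes (16 to 17 higher, 17 to 18 lower). edgeR and DESeq2 on recovered reads made 3944 and 3870 calls. The share of higher calls was 52.3% as reported and 45.1% at the same total. The replicate block gave 3897 calls (2035 higher, 1862 lower), 3 members and 34 list genes, the same numbers of members and list genes as without it. The correlations of same-numbered libraries' deviations from their group means were -0.0999, -0.105 and -0.0199. Differently numbered libraries were not compared in this way, so these values cannot tell whether the replicate numbers pair the libraries.

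Among the other genes named, none changed direction while called. Zfp467 and Coro1a lost their call in limma without trend, Cd163 with 5 added, Elovl6 and Col1a2 after quantile normalization, and Vcam1 without control replicate 2 or dexamethasone replicate 2. Mertk was called without dexamethasone replicate 2 or 3, and Otop1 without control replicate 2 (-1.16). The cause was not tested.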
